A study of Mus musculus with 4 samples.

Results

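The clustered protocadherins are 58 genes on mouse chromosome 18, chosen as all genes there whose symbol starts with Pcdha, Pcdhb or Pcdhg in the RefSeq table for GRCm38.p6 (mm10), which lists 49997 genes. There are 14 alpha genes, 22 beta genes and 22 gamma genes, from 36930285 at the start of Pcdha1 to 37841873 at the end of the gamma genes. Peak summits were taken from 10 kb before to 10 kb after this run, a window of 932 kb. It held 114 of the 93969 summits of the first library below, 109 of 74555 in the second, 97 of 66365 in the third and 115 of 99177 in the fourth.

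Clustered protocadherins are cell-surface adhesion proteins through which neurons tell their own branches from those of other neurons. In the alpha and gamma clusters each gene has its own large first exon, the variable exon, with its own promoter, and it is spliced to a few constant exons shared by the whole cluster. Beta genes have a single exon. CTCF, a DNA-binding factor of insulators, stops the cohesin ring as it moves along chromatin. It is known to bind at protocadherin promoters and within alpha variable exons, and to link them with distant enhancers when a neuron chooses which of these genes to express. The C-type genes, Pcdhac1, Pcdhac2, Pcdhgc3, Pcdhgc4 and Pcdhgc5, lie at the ends of the alpha and gamma arrays and are expressed more uniformly among neurons.

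CTCF was profiled by CUT&RUN, in which an antibody-guided nuclease releases the DNA around a bound protein. The cells were mouse embryonic stem cells (mESC), with 4 genotypes and a single library of each. All 4 lines carried a HoxB Del allele opposite a chromosome 11 with Del(i9-13) and with Ins(CBS5-10), a set of CTCF binding sites. The first line had no further change (the Ins library). The second also had Del(CBS8-10) (the Del(CBS8-10) library), the third also had Inv(CBS5-10) (the Inv library), and the fourth had Inv(CBS5-10) and Del(CBS7-10) as well (the Inv:Del(CBS7-10) library). The labels name no change on chromosome 18, and do not say whether a line is 1 clone. Peaks hold no expression values, so the cell type could not be checked against marker genes.

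Each peak has a −log10 q, the strength of its call by the authors' peak caller, and a fold of the pileup at the summit over the local background. The pileup, the whole number of fragments or reads counted over the summit, was recovered from these values. Which of these units the peak caller counted is not given. The libraries differ in depth. The commonest background in a list, a stand-in for depth, was 0.858 for Ins, 0.553 for Del(CBS8-10), 0.19 for Inv and 1.327 for Inv:Del(CBS7-10). The Inv list therefore comes from the shallowest library, and a raw −log10 q does not compare libraries. Values of 4 libraries are given in this order throughout. With 1 library per genotype there is no replicate check, no test and no p-value.

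CTCF summits were dense over the locus. There were 12.2, 11.7, 10.4 and 12.3 summits per 100 kb, against 2.79, 2.24, 1.86 and 2.93 on the rest of chromosome 18. They lay in 94, 93, 90 and 92 peak intervals, of which 19, 15, 6 and 17 held more than 1 summit. Summits of all lists were put in order, and neighbours at most 100 bp apart were joined into the same position. A position can thus span more than 100 bp, and its coordinate is the median of its summits. Of 147 positions in all, 79 were in all 4 lists, 18 in 3, 15 in 2 and 35 in a single list. The share in all 4 lists was 53.7%, against 33.0% of 119359 positions on autosomes other than chromosome 11. The gamma cluster was the densest, with 20.3, 18.7, 17.6 and 22.0 summits per 100 kb over 182 kb. The beta cluster followed, with 15.1, 15.1, 13.9 and 14.3 over 258 kb. The alpha cluster had 11.1, 10.4, 8.83 and 11.5 over 261 kb, and this order of the 3 clusters was the same in every library. The order holds per length of DNA, and the clusters also differ in gene density. Alpha, with 14 genes, held 29, 27, 23 and 30 summits. Beta, with 22 genes, held 39, 39, 36 and 37, and gamma, also with 22, held 37, 34, 32 and 40. Per gene, alpha was not the lowest in any library and gamma was not the highest.

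**Figure D1:**
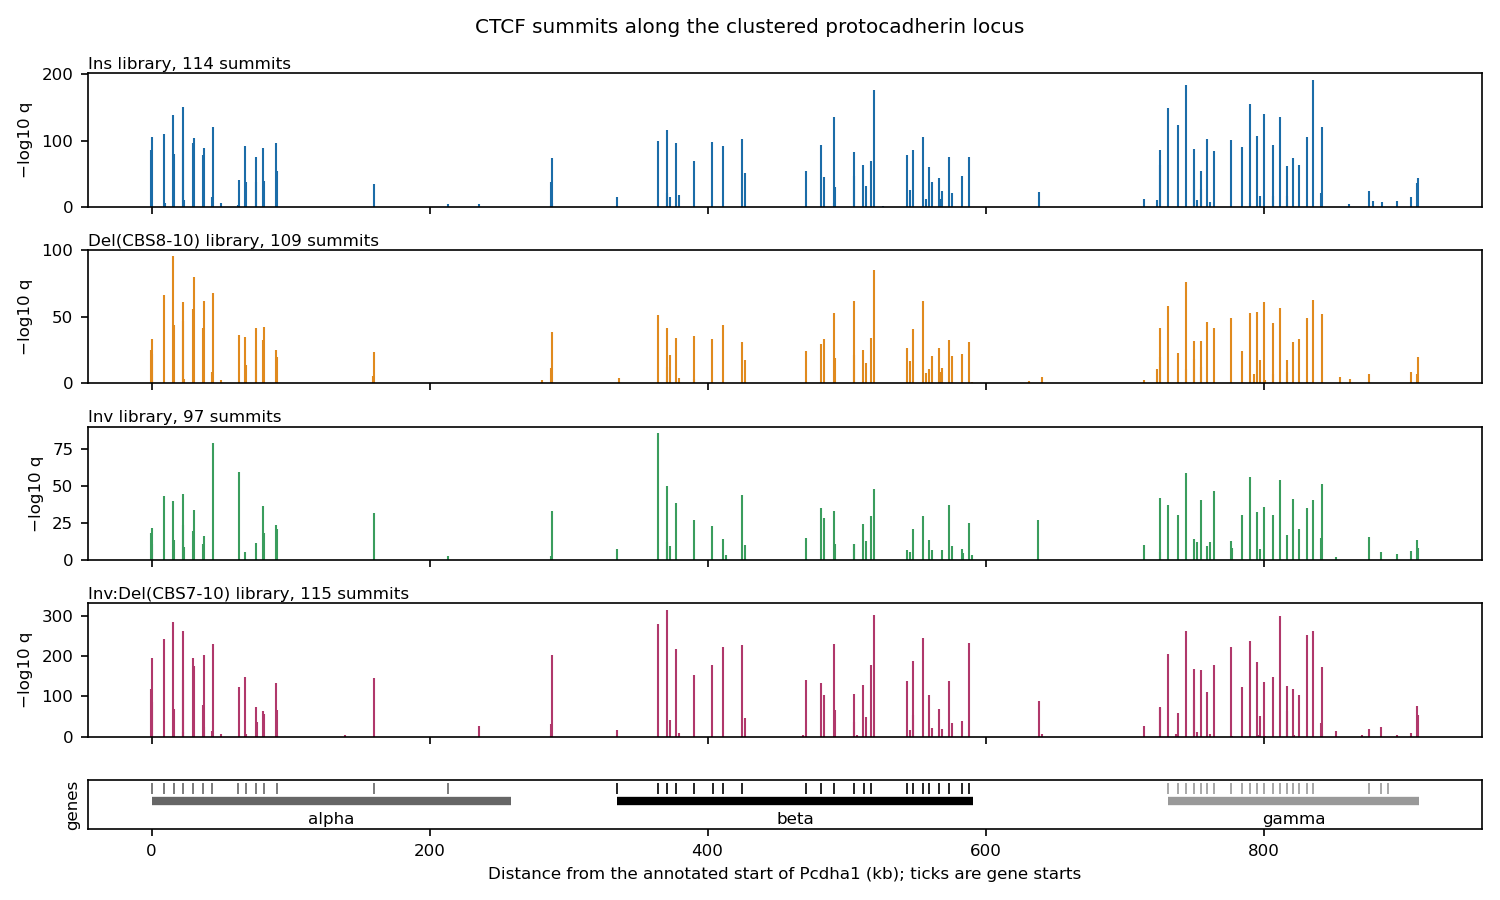
Every summit of the window in each library, drawn at its distance in kb from the start of Pcdha1 (x axis) with the −log10 q of its peak as height (y axis, a different scale in each panel); the lowest panel gives the clusters as bars and the gene starts as ticks. The 114, 109, 97 and 115 summits are dense along the gene arrays, with stretches of few summits on either side of the beta cluster and before and after Pcdhac1.

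Nearly every gene had a summit within 500 bp of its annotated start. This was so for 57, 54, 53 and 55 of the 58 genes. Among 16220 protein-coding genes off chromosomes 11 and 18, the share with a summit in the same window was 31.4%, 19.8%, 23.7% and 28.5%. The median −log10 q of the strongest such summit was 90.2, 36.4, 29.7 and 149 for the protocadherins and 12.7, 8.23, 9.36 and 16.6 for all protein-coding genes with one. All 14 alpha genes, all 22 beta genes and 21 of 22 gamma genes had such a summit in the Ins library. In the other lists it was 13, 12 and 13 alpha genes, 21, 21 and 22 beta genes, and 20 gamma genes in each.

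Related genes elsewhere differed. Of 9 non-clustered protocadherins that could be matched, which have promoters of their own outside any array, 1 had a summit within 500 bp of the start in any list: Pcdh8, in the Del(CBS8-10) list (−log10 q 7.48). The Ugt1a genes on chromosome 1, which encode glucuronosyltransferases and also splice variable first exons to shared exons, had one at 0 of 8 starts in every library. Of 9 matched genes whose products act on protocadherin choice, such as cohesin subunits, 6, 3, 3 and 5 had one. Smc3, a core subunit of cohesin, had the strongest in each list, at 163, 66.1, 35.0 and 218.

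Most summits in the first exons lay at 3 distances from the start, and the clusters differed in which of these they held. The distance classes were set after the offsets were seen: within 250 bp of the start, from there to 1000 bp after it (early exon), and over 1900 to 2500 bp after it (late exon). At the start, 14, 12, 12 and 12 of 14 alpha genes had a summit, as did 22, 21, 21 and 22 of 22 beta genes and 19 of 22 gamma genes in each library. In the early exon it was 12, 11, 9 and 11 alpha genes, but 3, 3, 2 and 2 beta genes and 3, 1, 2 and 4 gamma genes. In the late exon it was 0 alpha genes in every library, 11, 12, 11 and 11 beta genes, and 3, 1, 3 and 3 gamma genes. Alpha genes were thus mostly marked at the start and in the early exon, many beta genes at the start and in the late exon, and most gamma genes at the start alone.

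**Figure D2:**
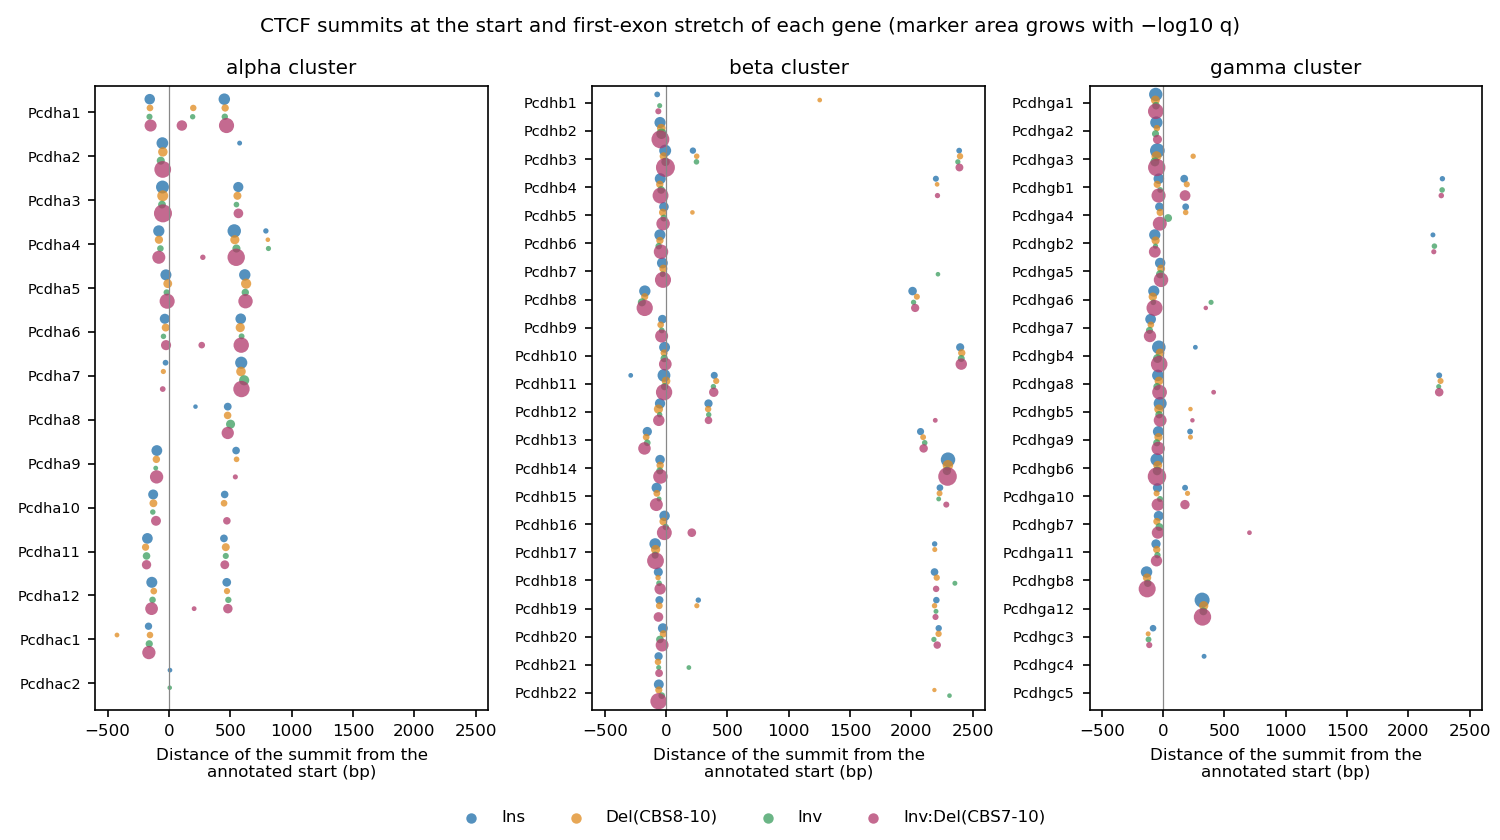
Distance of each summit from the annotated start of its gene (x axis, bp) for every gene in order along the locus (y axis), by cluster; colours are the 4 libraries and the marker area grows with the −log10 q. The strongest early-exon summits of alpha genes form a column 448 to 629 bp after the start, those in the late exon of beta genes one at 2010 to 2411 bp, and gamma genes have most summits at the start.

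The strongest start summit of a gene lay between −191 and 216 bp from the annotated start in alpha genes, −197 and 0 in beta genes and −135 and 41 in gamma genes. Weaker ones reached 250 bp in beta and 245 bp in gamma. The strongest start summit lay at a median of −68.5, −92.5, −89 and −92 bp in the alpha genes. It lay at −49, −50, −50 and −46 bp in the beta genes and at −47, −51, −50 and −46 bp in the gamma genes. In alpha genes that had both, the early-exon summit lay a median of 617.5, 616, 620 and 626.5 bp after the start summit. In beta genes that had both, the late-exon summit lay a median of 2258, 2266.5, 2310.5 and 2259 bp after the start summit. The late-exon and start summits of a beta gene were never in the same peak interval, whereas the 2 alpha summits shared an interval in 5 of 12, 1 of 10, 1 of 7 and 6 of 10 genes with both.

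Along the alpha cluster the stronger of these summits changed from gene to gene. Pcdha1, Pcdha4 and Pcdha6 had the higher −log10 q in the early exon in all 4 libraries. At Pcdha4 it was 101, 46.6, 24.1 and 141 at the start and 151, 61.4, 44.6 and 263 in the early exon. Pcdha5 had the stronger early-exon summit in 3 libraries of 4, with 96.6, 56.0, 19.5 and 194 at the start and 104, 80.0, 34.2 and 175 in the exon. By pileup its values were 122, 77, 27 and 238 at the start and 128, 98, 39 and 222 in the exon, so they lay close together in the Ins library.

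Pcdha7 and Pcdha8 were bound mainly in the exon. Pcdha7 had 14.9, 8.92 and 14.1 at the start, and no start summit in the Inv list. Its early-exon summit had 120, 68.2, 79.1 and 231. Pcdha8 had a start summit in the Ins library alone, at 2.88, and an early-exon summit at 40.0, 36.8, 59.5 and 123. In the rule with 500 bp that exon summit counted as a start summit of Pcdha8 in every library but Inv, in which it lay just past the limit.

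Pcdha2, Pcdha3 and most of Pcdha9 to Pcdha12 showed the opposite order. Pcdha3 had 138, 95.6, 40.0 and 283 at the start and 79.9, 43.6, 13.6 and 70.3 in the early exon. Pcdha2 had a start summit at 110, 66.8, 43.8 and 243, and an exon summit in the Ins library alone, at 6.32. Pcdha9, Pcdha10 and Pcdha12 had the stronger summit at the start in every library with both. At Pcdha9 the start had 91.7, 35.1, 5.64 and 147, and the exon had 37.6, 13.7 and 7.90 with none in the Inv list. Pcdha11 had the stronger exon summit in the Del(CBS8-10) library alone, at 42.7 against 32.7. For every alpha gene, pileup and −log10 q gave the same number of libraries with a stronger exon summit.

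**Figure D3:**
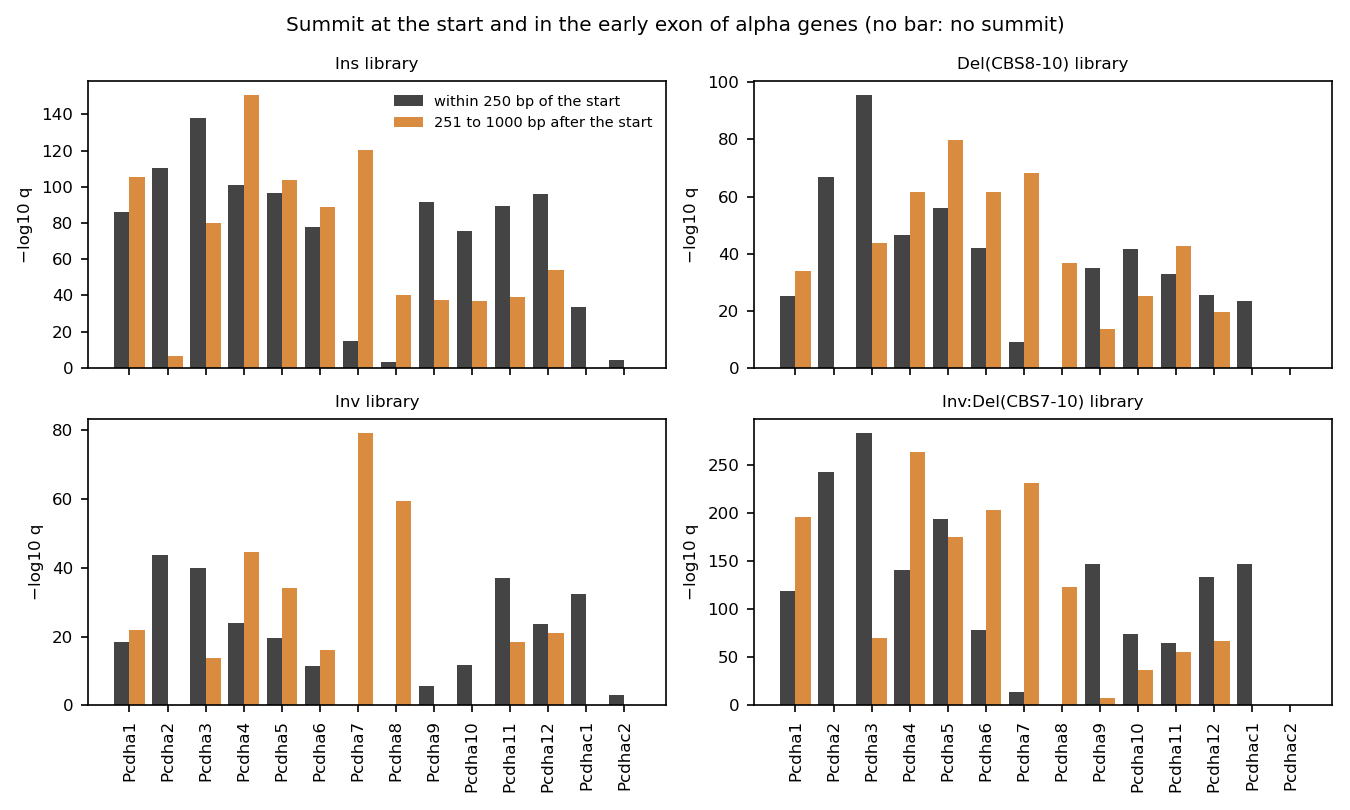
The −log10 q (y axis) of the strongest summit within 250 bp of the start and of the strongest one from there to 1000 bp after it, for each alpha gene in order along the locus (x axis), in 1 panel per library; a missing bar means no summit. The exon bar is the taller at Pcdha1, Pcdha4 and Pcdha6 in each panel, and Pcdha7 and Pcdha8 are marked almost only in the exon.

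The late-exon summits of the beta cluster were mostly weaker than those at the start. Of 14 beta genes with one in any library, 9 had it in all 4: Pcdhb3, Pcdhb8, Pcdhb10, Pcdhb13, Pcdhb14, Pcdhb15, Pcdhb18, Pcdhb19 and Pcdhb20. Pcdhb14 was the exception in strength: its late-exon summit, at 37449953, had 177, 85.2, 48.4 and 302, against 68.7, 34.3, 30.1 and 178 at its start. It was the stronger in all 4 libraries, by −log10 q and by pileup. Pcdhb10 had 45.3, 33.7, 28.8 and 104 in the late exon and 93.7, 29.6, 35.1 and 133 at the start. Only in the Del(CBS8-10) library was its exon value the higher, which was also so for Pcdhb18, at 20.3 against 11.2. The remaining beta genes with both had the higher −log10 q at the start wherever both were found.

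In the gamma cluster 3 genes had a late-exon summit. Pcdhga8 had one in every library, at 16.3, 17.8, 7.74 and 51.4, against 106, 53.4, 32.9 and 185 at its start. Pcdhgb1 and Pcdhgb2 had one in 3 libraries each, of 6.81 to 12.5. At Pcdhgb2 the exon −log10 q was the higher in the Inv library, at 12.3 against 9.34, but its pileup was not, at 24 against 26. Pcdhgb1 in that library had the reverse, with 12.5 against 14.1 by −log10 q and 27 against 25 by pileup. The A and B genes of this cluster, named Pcdhga and Pcdhgb, overlapped in strength at the start. Within 500 bp the 12 Pcdhga genes ran from 53.5 to 192 in the Ins library and the 7 Pcdhgb genes from 73.6 to 154. Their median pileups were 118.5, 55.5, 35 and 221 for Pcdhga and 159, 69, 44 and 218 for Pcdhgb. Pcdhgb was thus the higher in every library but Inv:Del(CBS7-10).

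The strongest start summits in the Ins library were, by the rule for named genes, Pcdha3 (138) and Pcdha2 (110) in alpha, Pcdhb11 and Pcdhb3 in beta, and Pcdhga12 and Pcdhga3 in gamma. Pcdhb11 had 136, 52.8, 33.3 and 229, and Pcdhb3 had 116, 42, 50.0 and 314.5. Pcdhb3 was the strongest start of the locus in the Inv:Del(CBS7-10) library. In the Inv library this was Pcdhb2, at 86.1, with 98.9, 51.7 and 278 in the others. Pcdhga3 had 183, 76.4, 59.3 and 262. Pcdhga12 had 192, 62.8, 41 and 262, but its only summit within 500 bp lay 318 to 331 bp after the annotated start, farther in than at any other gamma gene with a strong summit.

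**Figure D4:**
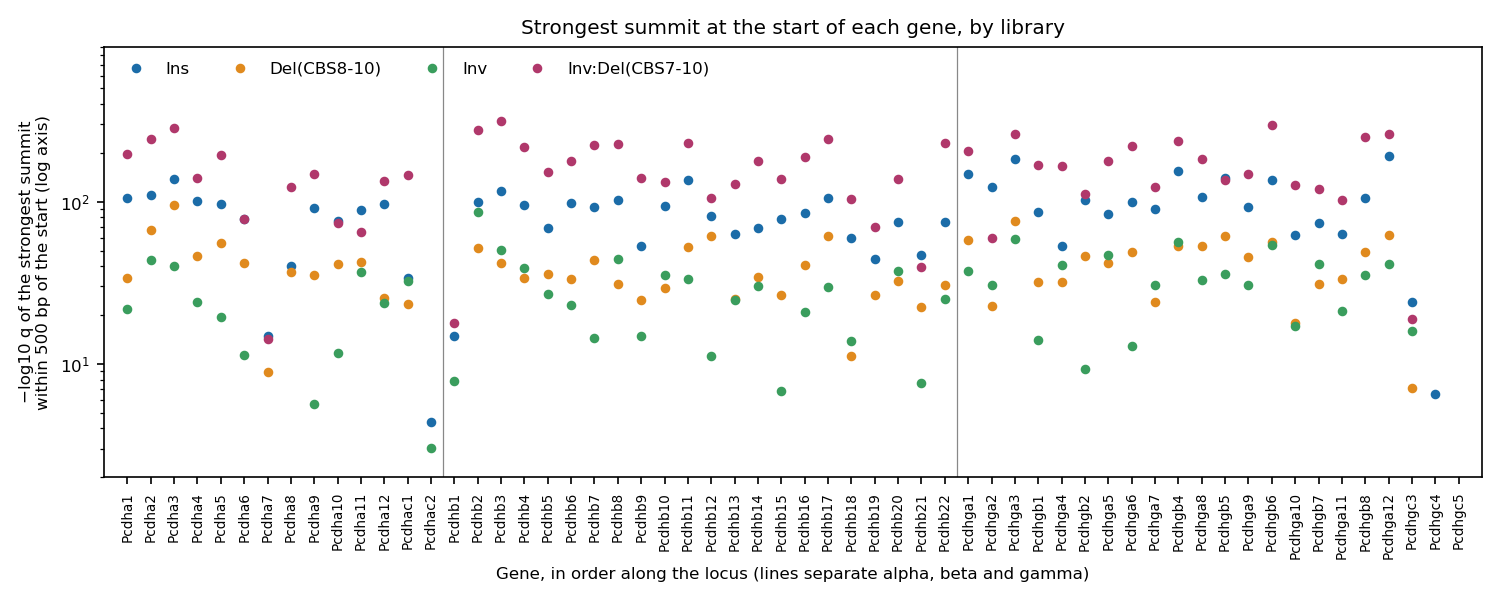
The −log10 q of the strongest summit within 500 bp of the start (y axis, log scale) for each gene in order along the locus (x axis), coloured by library; a missing point means no summit. In the Ins library Pcdha7, Pcdhac2, Pcdhb1, Pcdhgc3 and Pcdhgc4 lie at 24.1 or lower, and the other genes with a summit at 33.6 or higher.

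In the Ins library the lowest values within 500 bp of a start belonged to the C-type genes, Pcdha7 and Pcdhb1, the first gene of the beta array. Pcdhgc5 had no summit within 500 bp in any library. Pcdhgc4 had one in the Ins library alone, 334 bp after its start (6.48), and Pcdhac2 in the Ins and Inv libraries alone (4.38 and 3.05). Pcdhgc3 had 24.1, 7.05, 15.9 and 18.9. Pcdhb1 had 14.8, 7.78 and 17.8, with pileups of 17, 7 and 22, and no start summit in the Del(CBS8-10) list. Pcdhac1 was the exception among the C-type genes, with 33.6, 23.4, 32.3 and 146 at 37089973 and pileups of 42, 27, 30 and 154. After Pcdhac2, Pcdhb1 and Pcdha7, the lowest value within 500 bp among alpha and beta genes in the Ins library was that of Pcdhac1 (33.6). Pcdha8 (40.0) and Pcdhb19 (44.0) followed. The value of Pcdha8 is that of its early-exon summit, since its summit within 250 bp of the start had 2.88. Pcdhb19 lacked a start summit in the Inv library and had 26.7 and 69.7 in the other lists.

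The strength of the strongest summits within 500 bp of the start did not order the 3 clusters in a stable way. The median −log10 q within 500 bp of the start was 90.5, 41.6, 22.7 and 141 in alpha, 79.9, 33.1, 25.3 and 165 in beta, and 100.1, 45.9, 34.1 and 166 in gamma. Gamma had the highest median in every library, by 1.11, 1.1, 1.5 and 1.18 times over alpha and by 1.25, 1.38, 1.35 and 1.01 times over beta. By fold over local background the gamma median was no longer above that of alpha for the Ins and Del(CBS8-10) lists, at 0.999 and 0.959 times, nor above that of beta for the Ins and Inv:Del(CBS7-10) lists, at 0.955 and 0.888 times. The recovered pileup kept the order, with gamma medians of 126, 58, 37 and 219.5 against 109.5, 51, 28.5 and 154 in alpha and 103.5, 44, 31 and 185.5 in beta. The median local background at summits was 8.22, 3.75, 1.83 and 8.63 in gamma, 6.44, 3.2, 1.74 and 10.58 in beta, 6.34, 3.62, 1.82 and 8.91 in alpha, and 1.94, 1.2, 0.64 and 2.56 over all peaks. Within each cluster the values ranged far more widely than the medians differed, from 4.38 to 138 in alpha, 14.8 to 136 in beta and 6.48 to 192 in gamma in the Ins library. The window of 500 bp also takes in some early-exon summits. They gave the value of Pcdha1 and Pcdhga12 in every library, of Pcdha8 in all but Inv, of Pcdha11 in Del(CBS8-10) and of Pcdhgc4 in Ins. Within 250 bp the median −log10 q was 87.6, 38.3, 21.6 and 136.9 in alpha. It was 79.9, 33.1, 25.3 and 164.57 in beta and 100.1, 45.8, 32.9 and 164.97 in gamma.

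To place the sites among all CTCF sites, each was ranked by −log10 q among 39356 positions on autosomes other than chromosome 11 that all 4 lists held. The 79 shared positions of the locus had median percentiles of 73.3, 67.7, 59.0 and 64.0, and 57, 58, 46 and 55 of them lay above 50. For the 50 positions at a start the medians were 77.5, 70.2, 68.1 and 67.9, with ranges from 19.5 to 98.1 in the Ins library and 7.66 to 98 in the Inv library. The start sites of gamma had medians of 81.7, 82.7, 71.8 and 72.6, those of alpha 77.4, 78.2, 58.3 and 64.7, and those of beta 72.1, 67.2, 62.3 and 76.0. The lowest percentiles of the 79 were 6.90, 0.65, 6.75 and 2.85, and 11, 15, 5 and 9 of them were in the top 10%.

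Neighbouring gene starts were a median of 7440 bp apart in alpha, 7842 bp in beta and 5330.0 bp in gamma. The strongest summits within 500 bp of a start, 1 per gene, were spaced like the starts by construction. Their median spacing was 7410, 7374, 7638 and 7387.5 bp in alpha and 7862, 7706.5, 9562.5 and 7858 bp in beta. It was 5369, 5321, 5326 and 5333 bp in gamma. Neighbouring summits of any kind were a median of 4871.5, 2743, 5734 and 4833 bp apart in alpha, 3617.5, 2711.5, 4476 and 4350.5 bp in beta and 4456.5, 4561, 5161 and 4581 bp in gamma. The widest stretches with no summit in any list were 73.5 kb in the space between beta and gamma, from 37570677 to 37644155, and 53.7 kb from Pcdhac1 to Pcdhac2. Next came 49.0 kb after Pcdha12 and 46.5 kb before Pcdhb1.

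The space between alpha and beta, 74.1 kb long, held 4, 3, 2 and 3 summits. Those at 37217479 to 37218372 lay 28.6 to 29.5 kb after the end of the alpha genes. The strongest, at 37218372, was in every list, with −log10 q of 73.5, 39.0, 33.6 and 203 and pileups of 93, 50, 34 and 229. The summit at 37217479 had 36.8, 11.7 and 30.9 and was not in the Inv list. Between them lay weak summits at 37217764 (1.95 and 4.37 in the Ins and Inv:Del(CBS7-10) lists) and 37217998 (6.28 and 2.89 in the Ins and Inv lists). A further one at 37211433 was in the Del(CBS8-10) list alone (2.44). An alpha enhancer with CTCF sites, HS5-1, is known to lie downstream of the alpha constant exons; these summits were not matched to it.

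The space between beta and gamma, 138 kb long, held 5, 6, 4 and 5 summits. A pair at 37655623 and 37655888, 6.15 and 5.89 kb before Pcdhga1, was in every list. The first had 62.7, 19.7, 5.28 and 73.2 and the second had 85.2, 41.5, 42.1 and 70.4. A weaker one at 37653863 had 10.2 and 10.7 in the Ins and Del(CBS8-10) lists. The position at 37644265, with 11.4, 2.44, 10.0 and 27.8, lay 61 bp past the upper end of Taf7, a gene for a general transcription factor subunit. Its summits were at 37644238, 37644293, 37644293 and 37644155. The last of these lay inside Taf7, which ends at 37644204. At 37568387, 47.0 kb after the last beta gene, the Ins, Inv and Inv:Del(CBS7-10) lists had 22.5, 27.0 and 89.7, and the Del(CBS8-10) list had none. Weak summits lay at 37570659 (4.99 and 6.08 in the Del(CBS8-10) and Inv:Del(CBS7-10) lists) and at 37561695 (1.51 in the Del(CBS8-10) list).

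Within the gamma cluster but away from variable exons, the summit at 37772125 stood out, 6.54 kb after the start of Pcdhga12 and before the C-type genes. It was in every list, with 120, 51.9, 51.8 and 173, above the gamma median at starts in each. Another at 37771694 had 21.3, 15.1 and 34.0 in the Ins, Inv and Inv:Del(CBS7-10) lists. At the end of the cluster, 37840909 and 37841477 lay 0.964 and 0.396 kb before the shared end of the gamma genes. They were in every list, with 35.4, 7.28, 13.8 and 75.7 and with 42.9, 19.9, 8.19 and 53.1. Another, at 37836334, had 15.2, 8.38, 6.05 and 10.4. In the alpha cluster, by contrast, the stretch from Pcdhac2 to the end of the constant exons held only 37165576 (27.8, Inv:Del(CBS7-10) list) and 37165678 (4.38, Ins list). No list had a summit between 10 kb and 2 kb before Pcdha1, or in the 10 kb after the gamma genes.

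Of the 68 positions missing from at least 1 list, the Inv list lacked 50, the Del(CBS8-10) list 38, the Ins list 33 and the Inv:Del(CBS7-10) list 32. As shares, in the usual order of libraries, these are 48.5%, 55.9%, 73.5% and 47.1%, against 47.9%, 68.6%, 78.9% and 41.9% of the 80003 such positions on the autosomes named above. The Inv list thus lacked the most at the locus and over the genome. The 5 with the highest −log10 q were 179 bp after the start of Pcdhgb1 (91.1), 37568387 (89.7), 193 bp after the start of Pcdha1 (85.4), the start of Pcdhb19 (69.7) and 179 bp after the start of Pcdhga10 (65.1). Each of these was in 3 lists, and each value given is that of the Inv:Del(CBS7-10) library, which had the highest background. The ranking thus favours positions in that list. The positions near Pcdhgb1, Pcdhga10 and Pcdhb19 were missing from the Inv list, and that near Pcdha1 from the Ins list. Wherever called, those near Pcdhgb1, Pcdhga10 and Pcdha1 were further summits in the peak interval of a start summit. That start summit was in every list, so these absences do not mean that the gene start lacked a peak. Depth moves with the counts of missing positions, since the Inv library is the shallowest, and its part in them was not tested.

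For positions in all 4 lists the pileup was scaled to the median over the shared positions of that library (65, 29, 21 and 113) and set against the median of the other 3 libraries. Of the 79 positions, 10 were more than 2-fold lower in the Inv library, where 5.62% of 39328 shared positions were. The 4 such positions of the Inv:Del(CBS7-10) library were the starts of Pcdha11, Pcdhga2 and Pcdhgc3 and 37655888 (7.22% of all). The Ins library had 1 (3.40%) and the Del(CBS8-10) library 0 (2.40%). More than 2-fold higher were 3 in the Del(CBS8-10) library (4.36% of all), 1 each in the Ins (1.97%) and Inv (6.51%) libraries, and 0 for Inv:Del(CBS7-10) (1.55%). The median over the locus was 0.01, 0.09, −0.17 and −0.07 on the log2 scale, against −0.09, 0.03, 0.12 and −0.02 over all shared positions. In the Inv library 12.7% of the 79 positions were thus past 2-fold lower, and their median lay below that of all shared positions. Both shares cover only positions called in every list, and the positions compared were not matched for strength.

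Those 10 positions had pileups of only 10 to 26 in the Inv library, so counting error is wide. The lowest was the start of Pcdha9, with pileups of 110, 48, 13 and 177 and a scaled log2 difference of −1.42 in the Inv library, with a 95% interval from the pileup of that library alone of −2.33 to −0.64. At the start of Pcdhb15 the pileups were 113, 43, 14 and 194 (−1.36, interval −2.24 to −0.62). At the start of Pcdhga6 they were 111, 53, 16 and 221 (−1.26, interval −2.07 to −0.56). The others were both sites of Pcdha6, the starts of Pcdha10, Pcdhb7, Pcdhb12 and Pcdhgb2, and 37655623. The interval included −1 for all 10.

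In the opposite direction, the early-exon site of Pcdha8 had pileups of 58, 47, 57 and 153 and was higher in the Inv library (1.00, interval 0.60 to 1.38). The start of Pcdhga2 had 121, 26, 28 and 67, and was higher in the Ins library (1.05, interval 0.78 to 1.31) and lower in the Inv:Del(CBS7-10) library (−1.17, interval −1.54 to −0.82). The start of Pcdhac1, with 42, 27, 30 and 154, was lower in the Ins library (−1.08, interval −1.55 to −0.64). The positions higher in the Del(CBS8-10) library were the early exon of Pcdha3 (pileups of 112, 65, 22 and 121) and the starts of Pcdha10 and Pcdhb12 (1.07, 1.06 and 1.13 in the same order). With 1 library per genotype, a difference between genotypes and a difference between libraries cannot be told apart.

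**Figure D5:**
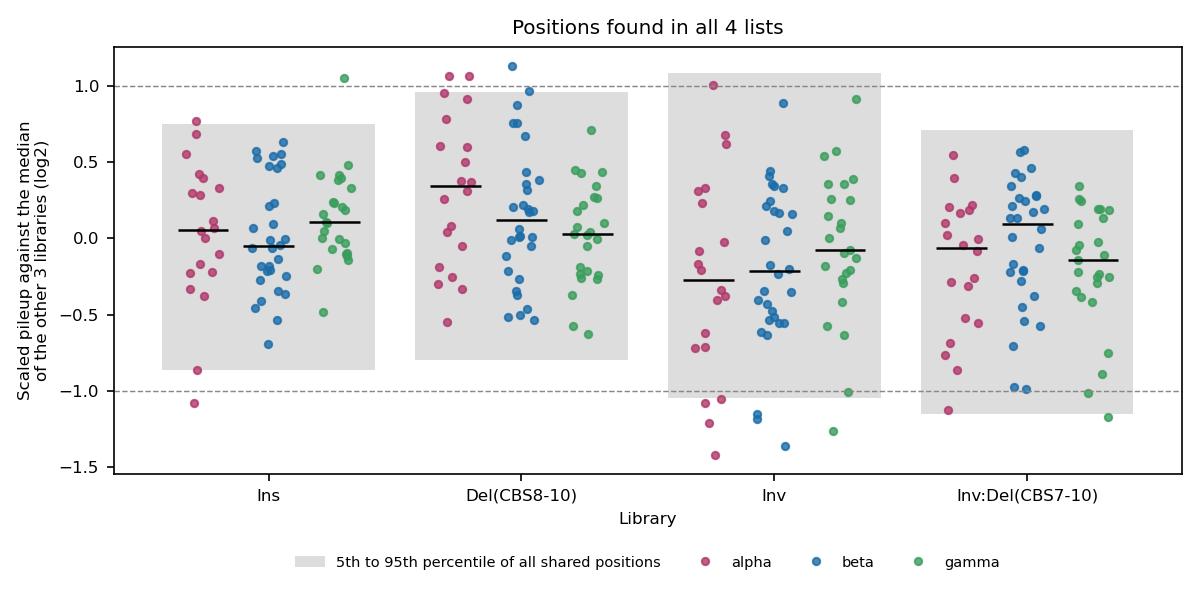
Scaled pileup of each shared position inside the 3 clusters against the median of the other 3 libraries (y axis, log2) for each library (x axis), coloured by cluster, with bars at the medians, dashed lines at 2-fold and a grey band from the 5th to the 95th percentile of all 39328 shared positions. Of the 75 points of each library, 8 lie below the band and 0 above it for Inv, 0 below and 4 above for Del(CBS8-10), 1 below and 2 above for Ins, and 1 below and 0 above for Inv:Del(CBS7-10).

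Variable exons of neighbouring genes resemble each other in sequence, and the treatment of reads that match several places is not given in these sources. Values at these exons are uncertain for that reason, and its part in them was not tested.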

How the data were processed

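CTCF CUT&RUN of 4 mESC lines was analysed from peak lists, 1 library per genotype, grouped by the genotype in the labels. The submitters' processing notes name mm10 and the tools MACS2 2.2.7.1, bedtools 2.30.0, Bowtie2 2.4.5, cutadapt 4.1 and Picard. No setting of theirs is given in the sources used here. The authors deposited, for each peak, a score (−log10 q times 10), a fold (pileup over local background), a −log10 p-value and a −log10 q-value.

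With SciPy 1.17.1, pandas 2.3.3 and NumPy 2.4.6 under Python 3.11.15 (figures: Matplotlib 3.10.9), summits, counted from 1, were placed by distance from the RefSeq gene start. All members were read from low to high coordinates, since the gene table gives no strand. A summit within 500 bp of a start was given to the nearest start, otherwise to the last start up to 2500 bp before it. A strictly nearest rule moved 1 position, at Pcdhb15. A cluster ran from 2 kb before its first start to its last end. Read-through genes over the locus, Gm37013, Gm38666 and Gm38667, were left out. Starts of other genes came from the RefSeq promoter table for GRCm38.p6, which matched 9 of 12 listed non-clustered protocadherins, 9 of 12 listed regulators and 8 Ugt1a genes off chromosomes 11 and 18.

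The whole-number pileup was recovered from the fold, taken as (pileup + 1) over (background + 1), and the −log10 p. The match to the −log10 p had to be within 0.001, or within a wider limit in proportion to it at high values. The recovery gave a value for 99.969%, 99.962%, 100.0% and 99.957% of peaks and was tested on simulated data. Read depth is not known here except through the background. Intervals are exact 95% Poisson intervals of 1 pileup and cover counting error only. They take the counted units as independent, and would be too narrow if both reads of a fragment were counted.

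The genes, lists and rules were chosen with earlier results of these data known. Named were the C-type genes, the 2 highest and 2 lowest start values of each cluster in the Ins library, genes lacking a start summit in a library, positions between clusters and the 5 strongest positions missing from some lists. Alpha genes with 2 sites and late-exon genes were named after their values were seen. Alternatives tried were the 20000 strongest peaks, peaks with −log10 q from 10 up, windows of 250 and 1000 bp, matching within 250 bp or by overlap of intervals, and the fold and pileup in place of −log10 q. Leaving out each library, or the C-type genes and Pcdhb1, was added after the data were seen. The planned motif count in promoter sequences was not run, and promoter sequences of the members are not used here.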

Additional observations from a re-analysis of the deposited data

How the results depend on the processing

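Depth differs between libraries and is known only through the background, so an absent summit shows only that none was called, above all in the shallow Inv list. Keeping peaks with a −log10 q of at least 10 moved 3 values by more than 1.5 times: the median spacing in the Del(CBS8-10) library became 4865 bp in alpha and 4586 bp in beta, and in beta in the Inv library 6780.5 bp. With the 20000 strongest peaks of each list, summits in the window (Ins, Del(CBS8-10), Inv, Inv:Del(CBS7-10)) numbered 56, 54, 43 and 51: 16, 16, 10 and 14 in alpha, 18, 19, 15 and 18 in beta, and 19, 17, 15 and 18 in gamma. Positions in all 4 lists then numbered 32. In the Inv library, genes with a start summit were then 6 in alpha and 13 in beta. The median spacing was then 5961 bp (Del(CBS8-10)) and 9421 bp (Inv) in alpha and 9739, 9938.5, 13192.5 and 10849 bp in beta. These lists hold fewer peaks by construction.

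The order of 2 cluster medians reversed in 10 cases. By fold, beta over alpha was 1.05 in the Ins library, gamma over alpha 0.999 (Ins) and 0.959 (Del(CBS8-10)), and gamma over beta 0.955 (Ins) and 0.888 (Inv:Del(CBS7-10)). With 1000 bp, which takes in every alpha early-exon summit, beta over alpha was 0.761 (Inv) and 0.848 (Inv:Del(CBS7-10)) and gamma over alpha 0.990 and 0.850. Without the C-type genes and Pcdhb1, gamma over beta was 0.948 in the Inv:Del(CBS7-10) library. The causes of these reversals were not tested. By pileup no order changed. With windows of 250 and 1000 bp the counts of genes with a start summit stayed within 1.5 times. So did the number of positions in all lists with matching within 250 bp or by overlap and without any 1 library, the only result recomputed in these ways. No paired analysis was possible because each genotype has 1 library.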
